A study of Cricetulus griseus with 16 samples.

Results

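RNA-seq counts were collected from cultures of CHO cells, an epithelial-like line from Chinese hamster ovary. The control cultures stayed at 37 °C and the others were heated. Mild heat was 40 °C, held for 1 h (short mild heat) or 6 h (long mild heat), and strong heat was 42.5 °C, held for 1 h. The genes described here carried a symbol made of Zfp or Znf followed by a number. Such genes encode transcription factors and other proteins with zinc fingers, short folds in which cysteine and histidine residues hold a zinc ion and which mostly contact DNA. Zfp36, which binds RNA through another type of finger, was not counted among them.

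Many of these proteins carry a KRAB domain, which recruits the co-repressor Trim28 and through it the histone methyltransferase Setdb1 and HP1 proteins. KRAB zinc finger proteins silence transposable elements and some genes, and their genes often stand in tandem arrays of related copies. Other Zfp genes encode proteins with roles outside the DNA, in splicing, in making ribosomes or in sensing stalled ribosomes.

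The series had 4 biological repeats, A to D, in each of 4 groups, 16 libraries in all. The total count per library ranged from 10504192 to 14668365. The group medians were 13281003 at 37 °C without repeat D, 12759812.5 after short mild heat, 12573465 after long mild heat and 10980907.5 at 42.5 °C. The study left out 1 of its controls, and control D was left out of the comparisons here. Over the genes described below, the correlation across genes of log2 values between control D and the other controls was 0.954 to 0.958, and among controls A, B and C it was 0.9915 to 0.9929. Genes are not independent replicates, so these correlations carry no test.

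Of 20824 genes in the count table, 229 had a symbol of this kind, each beginning with Zfp. Another 4423 genes were listed by identifier only, and further genes of this kind may be among them. The members, 182 genes, were selected on their read counts, with at least 10 reads in each of the 15 libraries other than control D. These are the same counts that were then compared between groups, so a gene silenced by heat would have been left out. All 182 members could be tested in all 6 comparisons. Their mean count over the 15 libraries ran from 19.3 to 5760, with a median of 158. At these depths 3 counts corresponded to 0.205 to 0.286 CPM, the counts of a gene scaled to library size, and this floor takes in counting error alone.

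The number of Zfp members that changed differed between the 3 heat treatments. At 42.5 °C, 14 members were higher and 24 lower than at 37 °C by at least 1.5-fold with an adjusted p under 0.05 in edgeR's quasi-likelihood test (7.69% and 13.2% of the members), as were 2.83% and 4.68% of the 10470 genes tested. Long mild heat left 8 members higher and 1 lower by the same rule, as it did 1.45% and 1.66% of 10499 genes. Short mild heat left no member past it, in either direction, and 0.276% of 10494 genes higher and 0.0572% lower. In all, 46 of the 182 members met the rule in at least 1 comparison with 37 °C and 136 in none. The matching number over all genes was not counted.

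By adjusted p alone, with no fold limit, 47 members were higher and 48 lower at 42.5 °C, where 20.8% and 22.3% of all genes were. These counts were 42 and 8 after long mild heat, where 14.7% and 14.8% of all genes passed. They were 2 and 2 after short mild heat, where 1.07% and 0.572% of all genes passed. With control D included, 27 members were higher and 27 lower at 42.5 °C, beside 6.82% and 11.4% of all genes, and 19 and 4 after long mild heat, beside 5.42% and 5.32%. None passed after short mild heat, beside 0.0191% of all genes in each direction. The counts by adjusted p alone with control D, here and for the lists below, were added after the data were seen.

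In 47 members, every 42.5 °C library lay above controls A, B and C, and in 49 every one lay below, as in 23.1% and 22.9% of all genes. With long mild heat, 56 members lay wholly above and 14 wholly below, as in 18.6% and 17.6% of all genes. After short mild heat, 29 lay wholly above and 16 wholly below, as in 6.79% and 6.63% of all genes.

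The middle of the members moved little. The median log2 fold change was 0.05 after short mild heat, 0.15 after long mild heat and -0.05 at 42.5 °C, while the median of all genes tested was 0.00 in each. The range from quantile 0.25 to 0.75 of the members was -0.36 to 0.23 at 42.5 °C, where that of all genes was -0.18 to 0.14. After long mild heat it was -0.03 to 0.28, against -0.13 to 0.13 for all genes. After short mild heat it was -0.05 to 0.16, against -0.07 to 0.07. Of the 182 members, 129 had a positive value after long mild heat, 113 after short mild heat and 86 at 42.5 °C. Over all genes these were 5273 of 10499, 5257 of 10494 and 5204 of 10470.

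**Figure D1:**
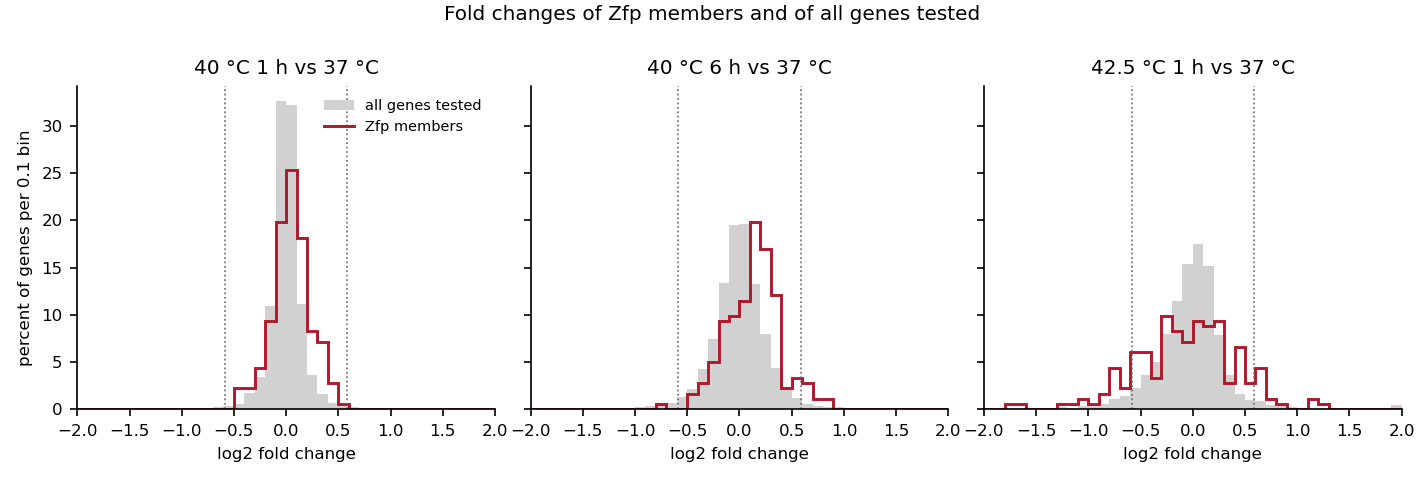
Percent of genes by log2 fold change against 37 °C, for the members and for all genes tested, with dotted lines at 1.5-fold and values beyond the axis placed in the end bins. The members after long mild heat have their median at 0.15, and at 42.5 °C they spread to both sides (quantiles 0.25 and 0.75 at -0.36 and 0.23).

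Library by library, the median log2 ratio of the members to their mean in controls A, B and C was 0.04, 0.04, 0.08 and 0.05 in repeats A to D after short mild heat. It was 0.07, 0.19, 0.15 and 0.14 after long mild heat, and 0.01, -0.03, -0.09 and 0.02 at 42.5 °C. The controls A, B and C lay between -0.03 and 0.02, so all 8 libraries at 40 °C lay above them and those at 42.5 °C overlapped them. Control D lay at -0.12. The members' summed CPM was 4446 ± 53.2 (SD, n = 3) at 37 °C, 4560 ± 67.6 (n = 4) after short mild heat, 4790 ± 125 (n = 4) after long mild heat and 4629 ± 141 (n = 4) at 42.5 °C, and 3884 in control D. As a plain share of each library's counts, the members had a mean of 0.455% at 37 °C and 0.4482% at 42.5 °C. After short and long mild heat this share was 0.4615% and 0.4838%. The mean at 42.5 °C thus lay above 37 °C by summed CPM and below it by plain share.

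The comparison of 42.5 °C with 37 °C asked what a short, strong heat exposure did to the transcripts. The 6 members with the largest falls were Zfp551, Zfp324, Zfp956, Zfp772, Zfp296 and Zfp809. The 6 with the largest rises were Zfp84, Zfp715, Zfp654, Zfp964, Zfp367 and Zfp560. Zfp809 is a KRAB protein known for silencing retroviral DNA, and Zfp296 is known from pluripotent stem cells.

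Zfp551 (ENSCGRG00001000507) had 4.98, 5.84 and 4.83 CPM in controls A, B and C and 3.47 in control D. Its 42.5 °C libraries had 2.44, 1.38, 1.45 and 1.18 CPM, a 3.26-fold fall (log2 fold change -1.70 ± 0.21 SE, edgeR adjusted p = 1.2e-05). Every 42.5 °C library of Zfp551 lay below every control, D included, and its libraries at 40 °C overlapped the controls.

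Zfp324 (ENSCGRG00001014364) had 3.02, 3.28 and 3.54 CPM in controls A, B and C, 3.56 in control D, and 0.993, 1.28, 1.16 and 0.867 CPM at 42.5 °C. It fell 3.06-fold (log2 fold change -1.61 ± 0.21 SE, edgeR adjusted p = 2.16e-05). Zfp956 (ENSCGRG00001014461) went from 4.56, 4.23 and 4.14 CPM, with 3.91 in control D, to 2.17, 2.07, 1.36 and 1.58 CPM (log2 fold change -1.28 ± 0.19 SE, edgeR adjusted p = 5.89e-05). For both genes the 42.5 °C libraries sat apart from and below all controls.

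Zfp772 (ENSCGRG00001020685) had 3.09, 2.12 and 2.76 CPM in controls A, B and C, 3.29 in control D, and 0.993, 1.18, 1.36 and 1.34 CPM at 42.5 °C (log2 fold change -1.12 ± 0.23 SE, edgeR adjusted p = 0.000968). Zfp296 (ENSCGRG00001015680) had 2.60, 3.57 and 2.85 CPM in A, B and C, 2.22 in D, and 1.72, 1.87, 1.26 and 1.03 CPM at 42.5 °C (log2 fold change -1.05 ± 0.23 SE, edgeR adjusted p = 0.00174). Both had few reads per library, and the highest heated library stood close under the lowest control in Zfp296.

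Zfp809 (ENSCGRG00001001284) had 11.6, 10.4 and 10.5 CPM in controls A, B and C and 12.5 in control D, against 6.14, 3.55, 6.11 and 5.44 CPM at 42.5 °C. It fell 2.04-fold (log2 fold change -1.03 ± 0.15 SE, edgeR adjusted p = 4.87e-05), with no overlap between heated libraries and controls. The long mild heat libraries of Zfp809 had 9.62, 12.5, 13.3 and 12.5 CPM, which overlapped the controls (log2 fold change 0.15, edgeR adjusted p = 0.355).

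The other 18 members that fell at 42.5 °C had log2 fold changes from -0.95 (Zfp629) to -0.59 (Zfp870). Of the 24 that fell, 23 had every 42.5 °C library below controls A, B and C, Zfp870 being the exception, and 18 also lay below control D. Zfp870 no longer passed with all 4 controls (edgeR adjusted p = 0.0712), without control A, B or C (0.196, 0.0763 and 0.0621) or without repeat A, B or C at 42.5 °C (0.122, 0.118 and 0.0947), nor in DESeq2 (adjusted p 0.138). In Zfp952 (log2 fold change -0.63, edgeR adjusted p = 0.0398) the edgeR adjusted p was 0.182 without control A, 0.0744 without control C, and 0.0522, 0.0923, 0.0695 and 0.0505 without repeat A, B, C or D at 42.5 °C. Zfp866 fell from 9.54, 9.04 and 9.83 CPM to 5.60, 6.12, 5.23 and 5.36 CPM (log2 fold change -0.77, edgeR adjusted p = 7.46e-05). Control D of Zfp866 had 5.25 CPM, within the heated range, and with all 4 controls its edgeR adjusted p was 0.0617. Zfp608 (-0.76) also no longer passed with all 4 controls (log2 fold change -0.58, edgeR adjusted p = 0.0682).

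Among the rises, Zfp84 (ENSCGRG00001001881) had 2.74, 2.77 and 3.79 CPM in controls A, B and C and 2.67 in control D, against 5.87, 7.89, 5.91 and 9.78 CPM at 42.5 °C. It rose 2.41-fold (log2 fold change 1.27 ± 0.20 SE, edgeR adjusted p = 0.000141). Every 42.5 °C library of Zfp84 lay above every other library of the series.

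Zfp715 (ENSCGRG00001011966) had 20.6, 20.6 and 21.0 CPM in controls A, B and C, 20.2 in control D, and 43.1, 49.3, 36.8 and 54.7 CPM at 42.5 °C. It rose 2.21-fold (log2 fold change 1.14 ± 0.11 SE, edgeR adjusted p = 9.06e-07). Zfp654 (ENSCGRG00001020292) had 19.7, 23.6 and 23.9 CPM in A, B and C, 19.9 in D, and 46.4, 49.5, 50.5 and 47.7 CPM at 42.5 °C, a 2.16-fold rise (log2 fold change 1.11 ± 0.07 SE, edgeR adjusted p = 2.69e-08). The 42.5 °C libraries of both genes stood above all libraries of the other groups, and those of Zfp654 lay close together.

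Zfp367 (ENSCGRG00001022531) had 13.8, 14.9 and 14.1 CPM in controls A, B and C, 11.0 in D, and 21.9, 29.0, 20 and 26.7 CPM at 42.5 °C (log2 fold change 0.77 ± 0.12 SE, edgeR adjusted p = 7.54e-05). Zfp560 (ENSCGRG00001023858) had 6.81, 8.02 and 8.45 CPM in A, B and C, 6.49 in D, and 12.5, 13.6, 13.7 and 12.9 CPM at 42.5 °C (log2 fold change 0.76 ± 0.11 SE, edgeR adjusted p = 5.07e-05). In both, all heated libraries lay above all controls.

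Zfp964 (ENSCGRG00001016061) had 1.68, 0.802 and 1.29 CPM in controls A, B and C, 1.07 in D, and 2.17, 2.37, 2.52 and 2.29 CPM at 42.5 °C (log2 fold change 0.87 ± 0.24 SE, edgeR adjusted p = 0.00938). Its heated libraries lay above the controls, but without control B, the lowest, its edgeR adjusted p was 0.0658. The other 8 members that rose had log2 fold changes from 0.62 (Zfp202 and Zfp426) to 0.70 (Zfp266). Without control A or without repeat D at 42.5 °C, Zfp202 was at 0.58, under 1.5-fold. All 14 members that rose had every 42.5 °C library above every control, D included.

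**Figure D2:**
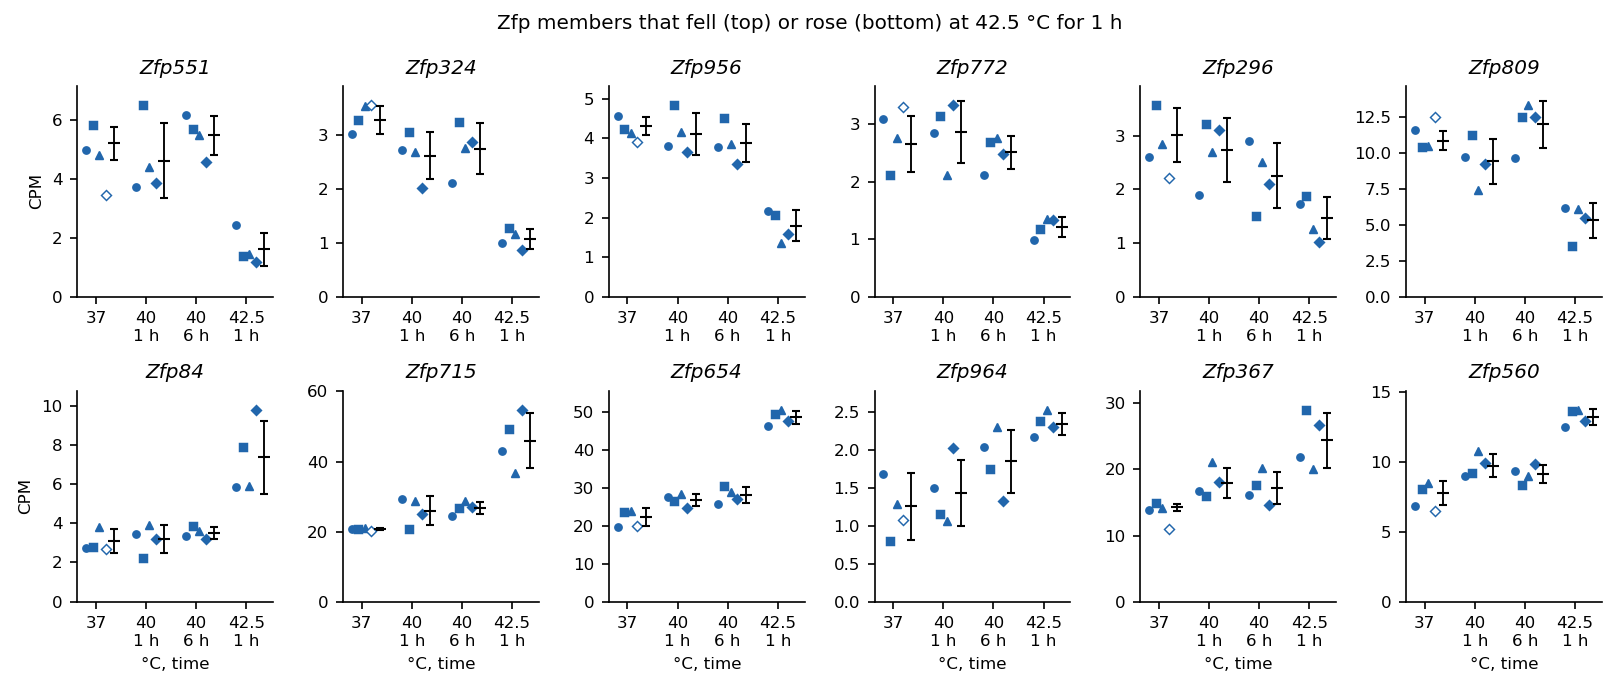
CPM of the 12 members with the largest falls and rises at 42.5 °C against 37 °C, with a point per library (circle, square, triangle and diamond for repeats A to D), the mean and SD of each group beside them, and control D as an open diamond outside the mean. In Zfp654 the 4 libraries at 42.5 °C lie between 46.4 and 50.5 CPM, above all others.

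With all 4 controls in the comparison, 17 members rose and 17 fell at 42.5 °C, as did 2.46% and 3.68% of all genes, where 14 rose and 24 fell with controls A, B and C. The median log2 fold change was then -0.01. DESeq2's Wald test gave 14 rises and 23 falls. Without 1 library in turn, 10 to 15 members rose, the fewest without repeat D at 42.5 °C, and 23 to 26 fell. Over all genes, 786 changed in edgeR with controls A, B and C and 712 in DESeq2. Without 1 library the number ran from 701 (repeat D at 42.5 °C left out) to 854 (repeat A left out). Of the 12 members given above, none lost its test with all 4 controls.

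By mean count, of 63 members with 10 to 100 reads, 12 (19.0%) fell and 5 rose at 42.5 °C, as did 11.5% and 7.31% of all genes in that class. Of 65 members at 100 to 300 reads, 9 (13.8%) fell and 6 rose, beside 7.35% and 2.8% of all genes. Of 43 at 300 to 1000 reads, 3 (6.98%) fell and 3 rose, beside 3.22% and 1.46%, and of 11 above that 0 fell and 0 rose, beside 0.917% and 1.51%. The share that fell was lower in the classes with more reads among all genes as well, and the difference between classes was not tested. These classes were chosen after seeing the data, and count depends on transcript length as well as on level.

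The comparison of long mild heat with 37 °C asked what a longer, milder exposure did. The members that rose most were Zfp605, Zfp423, Zfp787, Zfp58, Zfp94 and Zfp563, followed by Zfp426 and Zfp341, and the member that fell was Zfp523. Zfp423 is a regulator of fat cell commitment and a partner of EBF factors, and Zfp341 is an activator of the STAT3 gene. Zfp523 is a paralog of Zfp143, a factor of many promoters.

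Zfp605 (ENSCGRG00001025071) had 10.9, 11.1 and 10.3 CPM in controls A, B and C and 6.05 in control D, against 18.7, 20, 19.6 and 20.9 CPM after long mild heat. It rose 1.84-fold (log2 fold change 0.88 ± 0.09 SE, edgeR adjusted p = 3.95e-06). Its libraries after long mild heat stood above all libraries of the other groups, and those at 42.5 °C (12.9, 13.7, 13.6 and 16.2 CPM) lay between them and the controls.

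Zfp423 (ENSCGRG00001023063) had 27.9, 25.4 and 25.4 CPM in controls A, B and C and 27.3 in control D. It had 39.4, 54.8, 46.2 and 44.8 CPM after long mild heat, a 1.76-fold rise (log2 fold change 0.82 ± 0.09 SE, edgeR adjusted p = 1.13e-05). After short mild heat it had 27.7, 27.1, 26.4 and 27.0 CPM and at 42.5 °C 23.9, 25.5, 26.7 and 30.0 CPM. The rise was seen in the 6 h libraries, while those of both 1 h groups overlapped the controls.

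Zfp523 (ENSCGRG00001020582) had 27.8, 30.3 and 30.9 CPM in controls A, B and C and 29.5 in control D, against 19.2, 16.3, 16.1 and 16.8 CPM after long mild heat. It fell 1.74-fold (log2 fold change -0.80 ± 0.08 SE, edgeR adjusted p = 3.85e-06). Its libraries after short mild heat (21.2, 25.7, 21.2 and 21.4 CPM) and at 42.5 °C (24.7, 20.8, 23.0 and 21.8 CPM) also all lay below the controls. The log2 fold change was -0.40 in both, with edgeR adjusted p of 0.018 and 0.000715. The value after short mild heat was 0.188 with all 4 controls, 0.104 and 0.0854 without control B or C, and 0.0526 and 0.0702 without heated repeat A or C.

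Zfp787 (ENSCGRG00001000277) had 6.95, 7.44 and 7.42 CPM in controls A, B and C and 11.5, 14.6, 11.6 and 10.9 CPM after long mild heat (log2 fold change 0.74 ± 0.12 SE, edgeR adjusted p = 0.00033). Zfp94 (ENSCGRG00001012640) had 3.37, 3.94 and 2.85 CPM in A, B and C and 5.30, 5.22, 5.76 and 5.30 CPM after long mild heat (log2 fold change 0.66 ± 0.15 SE, edgeR adjusted p = 0.00408). In both, control D lay among the heated libraries, at 12.2 CPM for Zfp787 and 5.61 CPM for Zfp94. With all 4 controls the edgeR adjusted p was 0.0959 for Zfp787 and 0.145 for Zfp94, and without control C the log2 fold change of Zfp94 was 0.56, under 1.5-fold.

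Zfp58 (ENSCGRG00001024138) had 1.4, 1.68 and 1.12 CPM in controls A, B and C, 1.16 in D, and 2.38, 2.30, 2.29 and 2.18 CPM after long mild heat (log2 fold change 0.68 ± 0.22 SE, edgeR adjusted p = 0.0244). Zfp563 (ENSCGRG00001014545) had 2.39, 2.26 and 2.16 CPM in A, B and C, 1.16 in D, and 2.91, 3.4, 4.65 and 3.2 CPM (log2 fold change 0.64 ± 0.20 SE, edgeR adjusted p = 0.0224). The heated libraries of both lay above all controls. Neither passed in DESeq2 (adjusted p 0.0991 and 0.0593), and the edgeR adjusted p of Zfp58 was 0.0747 without control A and 0.1 without control C. For Zfp563 it was 0.0537, 0.0685 and 0.0648 without control A, B or C, 0.0839 without repeat C after long mild heat and 0.053 with all 4 controls.

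Zfp426 was the only member that met the rule against 37 °C both after long mild heat and at 42.5 °C. It had 4.63, 4.81 and 4.48 CPM in controls A, B and C, 4.72 in D, 5.65, 8.71, 7.65 and 6.78 CPM after long mild heat and 6.32, 8.49, 6.01 and 7.96 CPM at 42.5 °C. All heated libraries lay above the controls, with log2 fold changes of 0.63 and 0.62 (edgeR adjusted p = 0.00527 and 0.00308). The log2 fold change was 0.53, under 1.5-fold, without repeat B after long mild heat, and 0.55 or 0.57 without repeat B or D at 42.5 °C. Both comparisons share the controls, and how many of all genes passed in both was not counted.

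**Figure D3:**
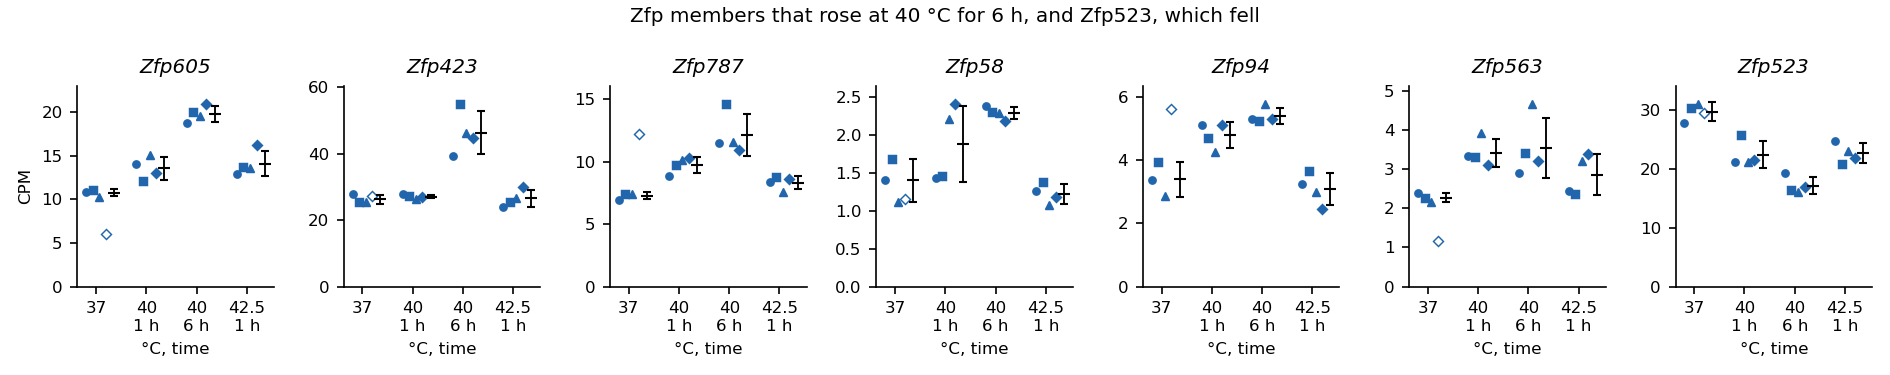
CPM of the members that rose most or fell after long mild heat against 37 °C, with a point per library (circle, square, triangle and diamond for repeats A to D), the mean and SD of each group beside them, and control D as an open diamond outside the mean. Zfp423 lies between 39.4 and 54.8 CPM in the 4 libraries after long mild heat, above its controls at 25.4 to 27.9 CPM.

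With all 4 controls, 8 members rose and 1 fell after long mild heat (1.07% and 1.01% of all genes), though Zfp787, Zfp94 and Zfp563 were no longer among them, and the median log2 fold change of the members was 0.18. DESeq2's Wald test gave 6 rises and 1 fall, and 267 changes over all genes. Without 1 library in turn, 5 to 10 members rose, the fewest without control C, and 1 fell. Over all genes, the number that changed then ran from 248 (repeat B after long mild heat left out) to 388 (repeat A left out). It was 314 without control C.

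The comparison of short mild heat with 37 °C asked what a short, mild exposure did. No member reached 1.5-fold with an adjusted p under 0.05 in edgeR. At an unadjusted p under 0.05, 29 members were higher and 13 lower, as were 7.98% and 6.85% of all genes. DESeq2 gave 0 in each direction, with no adjusted p for 19 members, and 31 changes over all genes. With all 4 controls edgeR also gave 0, with a median log2 fold change of 0.09, and 3 changes over all genes.

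By adjusted p alone, Zfp207 and Zfp770 were higher and Zfp608 and Zfp523 lower after short mild heat. Zfp207, a spindle and splicing factor, had 151, 151 and 142 CPM in controls A, B and C, 139 in D, and 187, 166, 180 and 178 CPM in the heated libraries (log2 fold change 0.27 ± 0.05 SE, edgeR adjusted p = 0.00889). Zfp608 had 23.9, 23.4 and 23.8 CPM in A, B and C and 17.3, 18.5, 16.9 and 17.7 CPM when heated (log2 fold change -0.43 ± 0.07 SE, edgeR adjusted p = 0.00686). The heated libraries of both stood apart from controls A, B and C, but control D of Zfp608, at 12.8 CPM, lay below its heated libraries. None of the 4 genes passed with all 4 controls, with edgeR adjusted p of 0.161 for Zfp207, 0.316 for Zfp770, 0.899 for Zfp608 and 0.188 for Zfp523. The edgeR adjusted p of Zfp207 was 0.0577 without control C. That of Zfp770 was 0.109, 0.176 and 0.105 without control A, B or C and 0.0677 and 0.119 without heated repeat A or C, and 0.147 in 1 fit over all groups.

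The heated groups were also compared with each other. From 1 h to 6 h at 40 °C, Zfp423 and Zfp329 rose and no member fell, where 0.556% of 10439 genes rose and 0.728% fell. Zfp423 rose by a log2 fold change of 0.78 ± 0.08 SE (edgeR adjusted p = 2.15e-05), with no overlap between the groups. Zfp329 had 1.63, 1.69, 1.96 and 1.63 CPM at 1 h and 2.29, 3.56, 2.44 and 2.57 CPM at 6 h, also without overlap (log2 fold change 0.66 ± 0.20 SE, edgeR adjusted p = 0.0271). Its edgeR adjusted p was 0.0681, 0.0626 or 0.0541 without repeat A, B or D at 1 h and 0.104 without repeat B at 6 h. At an unadjusted p under 0.05, 33 members were higher and 8 lower, as were 16.5% and 15.8% of all genes. DESeq2 gave 1 rise and 0 falls, and edgeR gave 1 change without repeat A or B at 1 h or without repeat B at 6 h. Over all genes, DESeq2 gave 120 changes, and edgeR gave 128, 127 and 101 in these settings.

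Between 42.5 °C and short mild heat, 7 members were higher and 25 lower at 42.5 °C, where 1.75% and 3.51% of 10441 genes were. Zfp84 and Zfp654 were among the highest, with log2 fold changes of 1.21 and 0.85, and Zfp551 (-1.52) and Zfp324 (-1.30) changed most the other way. Between 42.5 °C and long mild heat, 4 members were higher and 32 lower at 42.5 °C, where 2.53% and 5.72% of 10427 genes were. The 4 higher members were Zfp84 (1.07), Zfp654 (0.79), Zfp715 (0.78) and Zfp790 (0.71).

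Zfp866 and Zfp219 stood on opposite sides of the controls in these last groups. Zfp866 (ENSCGRG00001019443) had 12.2, 11.7, 14.4 and 13.2 CPM after long mild heat, above its controls A, B and C, while its 42.5 °C libraries lay below them. The direct log2 fold change was -1.22 ± 0.11 SE (edgeR adjusted p = 2.76e-07). Zfp219 (ENSCGRG00001019627) had 22.5, 22.4 and 20.5 CPM in controls A, B and C, 21.8 in D, 24.6, 34.0, 28.5 and 28.0 CPM after long mild heat and 15.8, 14.9, 13.5 and 16.9 CPM at 42.5 °C (direct log2 fold change -0.92 ± 0.10 SE, edgeR adjusted p = 1.56e-06). In each, the groups after long mild heat and at 42.5 °C did not overlap.

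Over the 4 groups, 83 members (45.6%) had their lowest group mean at 42.5 °C and 63 (34.6%) at 37 °C, as did 33.2% and 26.0% of 10105 genes that met the same count rule. The highest group mean was after long mild heat for 77 members (42.3%) and at 42.5 °C for 52 (28.6%), beside 29.4% and 35.6% of these genes. The order of group means carries no test.

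By role, of 12 members with known work in RNA handling, ribosomes, translation or splicing, none reached 1.5-fold with an adjusted p under 0.05 in edgeR in any comparison with 37 °C, and DESeq2 gave 0. By adjusted p alone, 7 of the 12 were higher and 1 lower at 42.5 °C (58.3% and 8.33%), beside 20.8% and 22.3% of all genes. This did not hold with all 4 controls, where 1 was higher and 0 lower (8.33% and 0%), beside 6.82% and 11.4% of all genes. At an unadjusted p under 0.05, 2 were higher and 2 lower after short mild heat and 4 and 2 after long mild heat, beside 7.98% and 6.85%, and 20.4% and 20.5%, of all genes. At 42.5 °C these were also 7 and 1, beside 24.7% and 26.0%. By adjusted p alone, 3 were higher and 0 lower after long mild heat (25% and 0%), beside 14.7% and 14.8% of all genes. With all 4 controls these were 0 and 0, beside 5.42% and 5.32%. At 42.5 °C Zfp318 had a log2 fold change of 0.27, Zfp622, a ribosome assembly factor, 0.23, and Zfp346, which binds double-stranded RNA, -0.41 (edgeR adjusted p = 0.000617, 0.00578 and 0.00861). Of the 8 genes that passed there, Zfp318 alone still did with all 4 controls (0.39, edgeR adjusted p = 0.0407). The edgeR adjusted p was then 0.382 for Zfp622 (0.13), 0.164 for Zfp346 (-0.31), 0.0943 for Zfp106, 0.0891 for Zfp207, 0.537 for Zfp277, 0.114 for Zfp326 and 0.492 for Zfp330. Zfp207, Zfp277, Zfp326 and Zfp330 also failed without single libraries, with edgeR adjusted p up to 0.102, 0.0676, 0.135 and 0.0892. Zfp598, a ligase that senses collided ribosomes, changed by 0.02 at 42.5 °C and 0.21 after long mild heat (edgeR adjusted p = 0.791 and 0.0159). The latter was 0.0768 with all 4 controls, 0.068 without control A and 0.0565 without control C.

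Of 15 members with roles in chromatin or silencing, Zfp809 was lower by the fold rule at 42.5 °C (6.67% of the list and 4.68% of all genes), 0 were higher and none met it at 40 °C. At 42.5 °C, 3 were higher and 6 lower at an unadjusted p under 0.05 (20% and 40.0%), beside 24.7% and 26.0% of all genes. By adjusted p alone these were 3 and 5 (20% and 33.3%), beside 20.8% and 22.3% of all genes. The same counts with all 4 controls were 1 and 2 (6.67% and 13.3%), beside 6.82% and 11.4%, near those of all genes. At 40 °C, unadjusted p under 0.05 held for 3 higher and 1 lower at 1 h (7.98% and 6.85% of all genes) and for 6 and 2 at 6 h (20.4% and 20.5% of all genes), and DESeq2 gave 0. By adjusted p alone, 5 were higher and 2 lower at 6 h (33.3% and 13.3%), beside 14.7% and 14.8% of all genes. With all 4 controls these were 1 and 0 (6.67% and 0%), beside 5.42% and 5.32%. Zfp687, a partner of Zmynd8, had a log2 fold change of -0.53 at 42.5 °C, and Zfp217, a partner of CtBP, -0.33 (edgeR adjusted p = 6.86e-07 and 0.000277). Zfp217 had -0.24 with all 4 controls and no longer passed (edgeR adjusted p = 0.122). The 3 that were higher at 42.5 °C were Zfp592 (0.24), Zfp609 (0.22) and Zfp644 (0.21), with edgeR adjusted p of 0.00887, 0.0239 and 0.00913. With control D included Zfp592 and Zfp609 had 0.122 and 0.258. Without control A the values were 0.0537, 0.113 and 0.0691, and for Zfp609 they were 0.0714 without control C and 0.069 without heated repeat B. Zfp292 was higher after long mild heat, with 0.34 (edgeR adjusted p = 0.00097). Zfp445, known for guarding imprinted genes, changed by -0.04, -0.06 and -0.02 in the 3 heated groups (short mild, long mild and 42.5 °C).

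Of 15 members with known target sites or pathways, Zfp423 rose after long mild heat and Zfp703 fell at 42.5 °C, each 6.67% of the list, beside 1.45% and 4.68% of all genes. At an unadjusted p under 0.05, 0 were higher and 3 lower after short mild heat, 5 and 2 after long mild heat and 4 and 4 at 42.5 °C. These were 0% and 20%, 33.3% and 13.3%, and 26.7% and 26.7%, beside 7.98% and 6.85%, 20.4% and 20.5%, and 24.7% and 26.0% of all genes. At 42.5 °C 2 were higher and 4 lower by adjusted p alone (13.3% and 26.7%), beside 20.8% and 22.3% of all genes, and also with all 4 controls, beside 6.82% and 11.4%. After long mild heat these counts were 3 and 2 (20% and 13.3%), beside 14.7% and 14.8%. With all 4 controls they were 2 and 1 (13.3% and 6.67%), beside 5.42% and 5.32%. Zfp703 (ENSCGRG00001015865), a co-repressor amplified in breast cancer, had 31.7, 36.4 and 35.1 CPM in controls A, B and C, 32.7 in D, and 22.4, 18.2, 23.2 and 15.1 CPM at 42.5 °C. It fell 1.76-fold with all heated libraries below all controls (log2 fold change -0.82 ± 0.11 SE, edgeR adjusted p = 3.71e-05). Zfp281 and Zfp148, which bind GC-rich promoters, had log2 fold changes of 0.52 and 0.47 at 42.5 °C, and Zfp263 and Zfp64 had -0.51 and -0.43 (edgeR adjusted p = 0.00037, 4.75e-05, 0.000158 and 1.46e-05). Zfp410, an activator of Chd4, was 0.34 higher after long mild heat (edgeR adjusted p = 0.00185), but 0.24 higher with all 4 controls, where it did not pass (edgeR adjusted p = 0.154).

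The co-repressor machinery that KRAB proteins recruit was looked at beside them. Of 22 genes, 19 were found by name and tested. None met the fold rule against 37 °C in edgeR or in DESeq2. At an unadjusted p under 0.05, 1 was higher and 2 lower after short mild heat, 9 and 2 after long mild heat, and 6 and 7 at 42.5 °C. The shares of all genes were 7.98% and 6.85%, 20.4% and 20.5%, and 24.7% and 26.0%, against 31.6% and 36.8% of these genes at 42.5 °C. There, 6 were higher and 7 lower by adjusted p alone, beside 20.8% and 22.3% of all genes, but 1 and 3 (5.26% and 15.8%) with all 4 controls, beside 6.82% and 11.4%. After long mild heat these counts were 6 and 1 (31.6% and 5.26%), beside 14.7% and 14.8%, and 3 and 0 (15.8% and 0%) with all 4 controls, beside 5.42% and 5.32%.

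At 42.5 °C Setdb1 had a log2 fold change of -0.55, its partner Atf7ip -0.51 and Trim28 -0.29 (edgeR adjusted p = 1.82e-06, 1.63e-05 and 6.64e-05), while Trim24 had 0.42 (edgeR adjusted p = 3.79e-05). After long mild heat Tasor and Mphosph8, both of the HUSH complex, had 0.34 and 0.30 and Atf7ip 0.33 (edgeR adjusted p = 0.00295, 0.000772 and 0.000487). Chd4 had -0.19 there (edgeR adjusted p = 0.00852), but -0.11 with all 4 controls (edgeR adjusted p = 0.485), and its edgeR adjusted p was 0.0612 without control B. Between 42.5 °C and long mild heat Atf7ip met the fold rule, lower at 42.5 °C (log2 fold change -0.85, edgeR adjusted p = 6.56e-09).

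Members that stood near each other in the gene order did not all move alike. The count table follows gene order: of 9799 neighbouring pairs of genes with a symbol in the RefSeq annotation of the assembly CriGri-PICRH-1.0, 99.6% lay on the same chromosome there. Only 6 of the 182 members were found in that annotation, so the order of the members themselves was not checked. With at most 3 positions between neighbours, 80 members fell into 28 runs, of which 7 held at least 4 members, 35 in all. These runs were chosen after seeing the data and were not tested. Related copies may share reads, and how such reads were counted is not stated.

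Of the 35 members in these 7 runs, 7 rose and 6 fell at 42.5 °C (20% and 17.1%), beside 7.69% and 13.2% of all members and 2.83% and 4.68% of all genes. The runs from Zfp146 to Zfp82 and from Zfp94 to Zfp180, of 4 members each, had 0 rises and 0 falls there. At 42.5 °C the run of Zfp952, Zfp472, Zfp870 and Zfp871 had 3 members that fell (-0.63, -0.77 and -0.59) and Zfp871 at 0.50. Of the 3, Zfp952 no longer passed in 11 of 15 settings and Zfp870 in 10. In the run of Zfp560, Zfp26, Zfp426, Zfp266 and Zfp846, Zfp560, Zfp426 and Zfp266 rose, Zfp26 had 0.44 and Zfp846 -0.46. With all 4 controls the edgeR adjusted p was 0.0775 for Zfp26 and 0.0686 for Zfp871. Zfp846 had an edgeR adjusted p of 0.0552 without control C and a DESeq2 adjusted p of 0.0518. In the run of Zfp866, Zfp963, Zfp869, Zfp964 and Zfp868, Zfp866 fell while Zfp869 (0.63) and Zfp964 rose, Zfp869 by less than 1.5-fold without control A (0.56) or without repeat D at 42.5 °C (0.57). In the run from Zfp398 to Zfp746, Zfp212 (-0.82) and Zfp956 (-1.28) fell, and in the run from Zfp14 to Zfp84, Zfp790 (0.68) and Zfp84 rose.

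**Figure D4:**
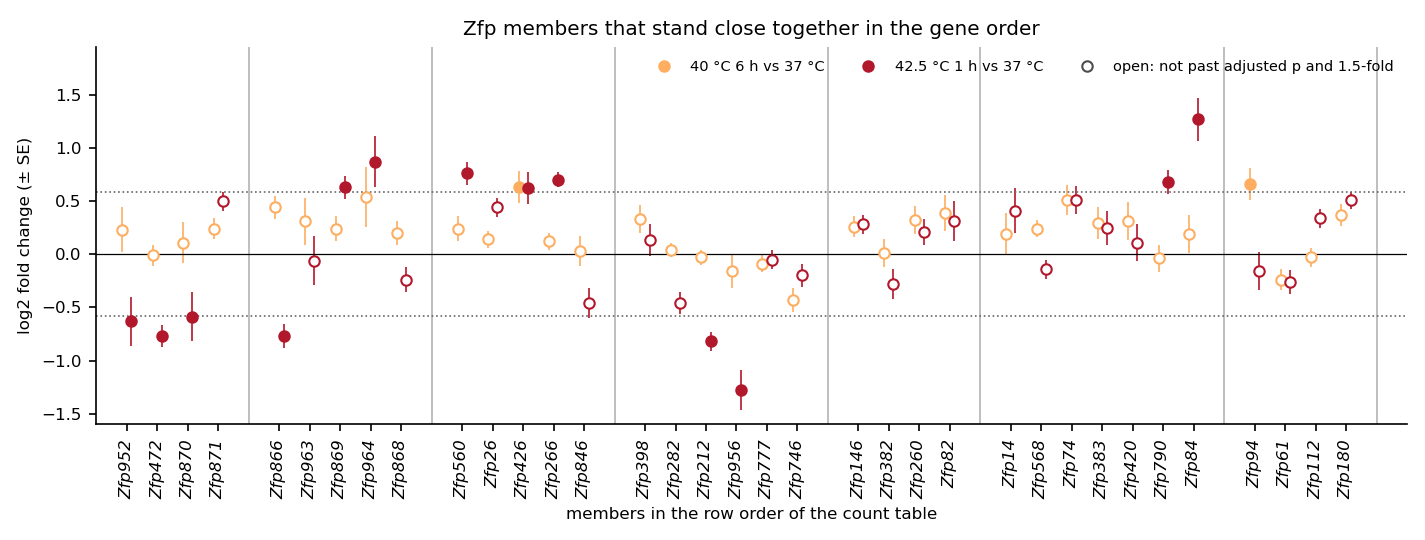
Log2 fold change (± SE) after long mild heat and at 42.5 °C against 37 °C of the 35 members in runs of at least 4, in gene order, with filled points for those past 1.5-fold and adjusted p. Zfp866 (-0.77) lies below 0 at 42.5 °C in the same run as Zfp964 (0.87).

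Zfp952 and Zfp810, with a lowest count of 10, and Zfp58, with 11, were just inside the rule for members, and Zfp72, Zfp799 and Zfp90, with 8, were just outside. Zfp580 also had a lowest count of 8. Of the 47 other genes with a Zfp symbol, 25 had no count in the 15 libraries other than control D and 22 had some. Of these, 8 could be tested in at least 1 comparison. Zfp799 was higher after long mild heat (0.59) and lower at 42.5 °C (-0.65). Zfp580 was lower after long mild heat (-0.77) and Zfp784 lower at 42.5 °C (-1.44). Zfp784 had 2.11, 1.68 and 1.55 CPM in controls A, B and C and 2.67 in control D. At 42.5 °C its libraries had 1.26, 0.691, 0.582 and 0.158 CPM (edgeR adjusted p = 0.00564). Its lowest count was 2, in repeat D at 42.5 °C, below the floor of 3 counts. Zfp799 and Zfp580 did not pass in DESeq2 (adjusted p 0.127 and 0.18 for Zfp799 and 0.125 for Zfp580). In edgeR both also failed without control A, B or C, Zfp799 without repeat A or C after long mild heat and A, B or C at 42.5 °C, and Zfp580 without repeat A or B, with adjusted p from 0.051 to 0.149. The adjusted p in edgeR with all 4 controls was 0.0524 for Zfp580 and 0.0908 for Zfp799 at 42.5 °C. These 3 genes are named after their values were seen.

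As a check on the groups, Hsph1, a heat shock chaperone, had 320 to 328 CPM in controls A, B and C. It had 449 to 874 CPM after short mild heat and 597 to 1070 CPM after long mild heat. In repeats A to D at 42.5 °C it had 1840, 2770, 1730 and 3770 CPM. The share of counts from mitochondrial genes was 2.53% at 37 °C, 2.78% and 3.14% after short and long mild heat, and 3.70% at 42.5 °C, and what part this had in the changes was not tested. Vim, Lgals1, S100a6, Actb, Tubb5 and Anxa2 were abundant in all libraries. Epcam, Ptprc, Gfap, Foxl2 and Cyp19a1 had at most 1 read in any library and Pecam1 and Alb at most 4. Cdh1 had 20 to 48 reads, Amh 24 to 90, Star 45 to 134 and Ddx4 7 to 22.

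CPM are relative to the other transcripts of a library, and in RNA from whole cultures fewer cells with a transcript cannot be told apart from less of it per cell. The p-values weigh differences between groups against the spread between these cultures.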

How the data were processed

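The deposited count table of the authors was used as given. The series names bcl2fastq, CLC Genomics Workbench and the genome CHOK1GS_HDv1 for it, without the release of the gene models, the strand setting or the handling of reads that match several genes. Members and gene lists were chosen with earlier results of these data known. Genes passing filterByExpr were tested in each comparison with the quasi-likelihood test of edgeR 4.0.16 on TMM-scaled counts, with Benjamini-Hochberg adjustment over all genes tested. A gene passed with an adjusted p under 0.05 and at least a 1.5-fold change. DESeq2 1.42.0 was run beside it, both in R 4.3.3. CPM used TMM factors over all 16 libraries. Named genes were the 6 members with the largest falls and rises past both limits against 37 °C, the 4 with the largest between heated groups, 3 on each side of the count rule, and examples from the role lists (RNA and ribosome, chromatin, known targets, KRAB co-repressors).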

Additional observations from a re-analysis of the deposited data

Results flagged for a closer look

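In groups of 4 libraries, a library was singled out when its gap to its nearest neighbour, as a share of the group's whole range, passed Dixon's critical value, which chance does in about 1 of 20 groups. Among 78 groups of named genes 2 passed, and among 24 groups of library measures 2 passed. Zfp523 had 25.7 CPM in repeat B after short mild heat, above the other 3 at 21.2 to 21.4 CPM. Zfp94 had 5.76 CPM in repeat C after long mild heat, above the others at 5.22 to 5.30 CPM. Repeat A after long mild heat had a total count of 11153350, below the others at 12503205 to 12700249. The members' summed CPM in control D was 3884, below controls A, B and C at 4385 to 4480.

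In 3 members the changes after long mild heat and at 42.5 °C had opposite signs, each with an adjusted p under 0.05 against 37 °C. How many of all genes did so was not counted. By adjusted p alone, 14.7% of all genes were higher and 14.8% lower after long mild heat, and 20.8% and 22.3% at 42.5 °C. The direct comparison of the heated groups tests their difference, and its log2 fold change was -1.22 for Zfp866 (0.44 and -0.77 against 37 °C, edgeR adjusted p = 2.76e-07), -0.92 for Zfp219 (0.40 and -0.52, edgeR adjusted p = 1.56e-06) and 0.41 for Zfp609 (-0.19 and 0.22, edgeR adjusted p = 0.000181). In Zfp609 the libraries of both heated groups overlapped controls A, B and C, and control D, at 32.4 CPM, lay far below these controls at 81.0 to 91.8 CPM. Zfp866 no longer passed against 37 °C with all 4 controls (edgeR adjusted p = 0.0566 after long mild heat and 0.0617 at 42.5 °C), nor did Zfp609 (0.927 and 0.258). The value of Zfp609 after long mild heat also failed without control B (0.201) or C (0.0563) and without heated repeat B (0.0803), C (0.0687) or D (0.0518), and at 42.5 °C without control A (0.113) or C (0.0714) or heated repeat B (0.069). After long mild heat Zfp609 failed as well with a block for repeat letters (edgeR adjusted p = 0.056) and in 1 fit over all groups (0.0709).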

How the results depend on the processing

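The results were recomputed with DESeq2, without the filter on low counts, in 1 fit over all groups, with all 4 controls, with a replicate block, by adjusted p alone, with a test against 1.5-fold (glmTreat), and without each library in turn. By adjusted p alone the members that changed numbered 4 after short mild heat, 50 after long mild heat and 95 at 42.5 °C, and 22, 93 and 94 in the comparisons between heated groups (long with short mild heat, 42.5 °C with short mild heat, and with long mild heat). The latter were 19 higher and 3 lower (9.45% and 9.04% of all genes), 37 and 56 (16.4% and 19.6%), and 25 and 69 (22.5% and 24.5%). Tested by glmTreat, a stricter test by construction, they numbered 0 after long mild heat, 8 at 42.5 °C (3 rises and 5 falls), and 0, 8 and 8 between heated groups. Over all genes glmTreat gave 31 of 10499 after long mild heat and 262 of 10470 at 42.5 °C. Between heated groups it gave 8 of 10439, 171 of 10441 and 260 of 10427. DESeq2 gave 1 member between long and short mild heat, and 120 over all genes. With all 4 controls the median after short mild heat was 0.09, and the log2 fold change of Zfp609 after long mild heat reversed to 0.05 (edgeR adjusted p = 0.927). Apart from what the construction of a setting shows, the cause was not tested.

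Without 1 library, the members that changed ranged from 6 to 11 after long mild heat (5 to 10 rises), from 33 to 40 at 42.5 °C (10 to 15 rises), from 1 to 3 between long and short mild heat (1 without repeat A or B at 1 h, or repeat B at 6 h), from 29 to 34 between 42.5 °C and short mild heat, and from 33 to 38 between 42.5 °C and long mild heat. Over all genes, the ranges in the same order were 248 to 388, 701 to 854, 101 to 175, 510 to 618 and 810 to 922. Of 121 results of named genes that passed both limits, followed over 1805 alternative values (adjusted p alone not counted), 1616 kept direction and side of the limits and 189 did not, 84 of them by glmTreat, 73 without 1 library, 11 with all 4 controls and 11 with DESeq2.

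With a block for repeat letters, 0, 10 and 33 members changed after short mild heat, long mild heat and 42.5 °C, and 2, 32 and 36 between heated groups. After long mild heat 9 of them rose and 1 fell. At 42.5 °C 10 rose and 23 fell, where 14 and 24 did without the block. Between heated groups 2 were higher and 0 lower, 7 and 25, and 4 and 32. Over all genes, 48, 333 and 717 changed against 37 °C with the block, and 138, 546 and 858 between heated groups. For each heated library, the deviations of log2 values from its group mean were correlated over genes with those of controls A, B and C. Same-letter correlations were 0.0946 to 0.181 after short mild heat, -0.0247 to 0.0643 after long mild heat and -0.0107 to 0.0874 at 42.5 °C. Those between different letters had means of -0.0484, -0.00646 and -0.0102. In the block check, 3 of 3, 1 of 3 and 1 of 3 heated libraries correlated best with the control of their own letter. With the block, Zfp426 and Zfp869 at 42.5 °C had 0.57, Zfp202 0.58 and Zkscan16 -0.56, all under 1.5-fold. The labels state no pairing.

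Zfp952, among the members with the fewest reads, no longer passed in 11 of 15 settings, and what part depth had in this was not tested.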

Other observations

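Other zinc finger families were measured in the same libraries. By the fold rule, 1.45% of all genes rose and 1.66% fell after long mild heat, and 2.83% and 4.68% at 42.5 °C. Of 33 ZBTB genes tested, Zbtb40 rose after long mild heat (3.03%, log2 fold change 0.70, edgeR adjusted p = 3.76e-06). At 42.5 °C 2 rose and 3 fell (6.06% and 9.09%): Zbtb11 (0.75) and Zbtb1 (0.68) rose and Zbtb45 (-1.04), Zbtb48 (-0.89) and Zbtb7a (-0.62) fell. Of 9 ZKSCAN genes 1 rose and 2 fell there (11.1% and 22.2%), and of 7 ZSCAN genes 0 rose and 2 fell (0% and 28.6%). Zkscan14 rose from a mean of 5.74 to 18.3 CPM at 42.5 °C (log2 fold change 1.67 ± 0.14 SE, edgeR adjusted p = 4.62e-07), with no overlap between heated libraries and controls A, B and C. Zkscan6, Zkscan16, Zscan2 and Zscan20 fell (-0.72, -0.63, -1.34 and -0.60). Zbtb7a (-0.49), Zkscan16 (-0.56) and Zscan20 (-0.57) were under 1.5-fold with all 4 controls. So were Zbtb7a without control B (-0.58), Zkscan6 without repeat C at 42.5 °C (-0.57), Zkscan16 without repeat D (-0.56), and Zscan20 without control C (-0.57) or repeat B (-0.58) or C (-0.57). Zscan2 did not pass in DESeq2 (adjusted p 0.0598) or without control A (edgeR adjusted p = 0.0625), and with all 4 controls its reads were too few for the filter. Of 14 ZC3H genes, Zc3h6 fell after long mild heat (-1.09), and at 42.5 °C Zc3h12a rose (0.89) and Zc3h3 fell (-0.77), each 7.14% of the family. None of the ZDHHC, ZMYM and ZFYVE genes met the fold rule against 37 °C in edgeR or DESeq2. At an unadjusted p under 0.05, 3 of 16 ZDHHC, 1 of 5 ZMYM and 1 of 7 ZFYVE genes were higher and 6, 0 and 3 lower at 42.5 °C, beside 24.7% and 26.0% of all genes. After long mild heat 1, 3 and 6 were higher and 3, 0 and 0 lower, beside 20.4% and 20.5%. By adjusted p alone 1, 2 and 4 were higher there and 1, 0 and 0 lower, beside 14.7% and 14.8% of all genes, and with all 4 controls 0, 1 and 2 were higher and 0 lower, beside 5.42% and 5.32%. After short mild heat 1, 1 and 1 were higher and 1, 1 and 0 lower at an unadjusted p under 0.05, of 17, 5 and 7 tested, beside 7.98% and 6.85%. These genes are named after their values were seen.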
